A study of Ovis aries with 26 samples.

Results

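The endothelial cells of the fetal and newborn sheep pancreas were followed here, 4144 of the 79510 cells kept from single-cell RNA-seq of 26 libraries and 23 animals. A kept cell had more than 200 and fewer than 6000 detected genes and under 25% of its unique molecular identifiers (UMIs, the count of captured transcript molecules) from mitochondrial genes. It was taken as endothelial when it held a UMI of at least 3 of PECAM1, CDH5, PLVAP, VWF, EMCN and KDR and no UMI of CHGA, CD3E or C1QA, which mark endocrine cells, T cells and macrophages. The rule used no label of age, genotype or breeding. The cells were thus chosen by the detected UMIs of these 9 genes, whose values are given as a description and without a test.

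The animals were American Romney sheep at 80 days of gestation, 120 days of gestation and term. At 80 days the non-CF group held 4 naturally bred male fetuses, 2 WT and 2 heterozygous for CFTR (1 WT and both heterozygous fetuses were triplets), and the CFTR-/- group held 3 cloned males. At 120 days there were 3 WT fetuses (1 of them female), 4 cloned male CFTR-/- fetuses and 2 naturally bred female twin CFTR-/- fetuses. At term there were 4 naturally born WT lambs (1 of them female) and 3 CFTR-/- lambs, of which 2 were naturally bred females and 1 was a cloned male. All clones came from a single male fibroblast line with CFTR targeted in exon 2, so cloned animals shared one genome, and the heterozygous fetuses carried an allele edited in exon 11. Sex and breeding cannot be told apart among the CFTR-/- fetuses at 120 days. Genotype and breeding cannot be told apart at 80 days, where all CFTR-/- fetuses were cloned and all non-CF fetuses were naturally bred. The same holds where cloned CFTR-/- fetuses at 120 days, or their changes with age, are compared with those of WT fetuses. Breeding was taken from the study's sample table and not from the sample labels. The cells came from dissociated tissue with red cells lysed, and some preparations used a different enzyme, which the sources used here do not assign to samples.

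Endothelial cells line blood and lymphatic vessels and control coagulation, leukocyte entry and exchange with the tissue. In the pancreas, capillaries run along acini and form dense fenestrated networks in islets, and vessel growth depends on VEGF, TIE, Notch and BMP signals. During development the early plexus divides and is remodelled into arteries, capillaries, veins and lymphatics, each with its own set of genes.

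Library depth ran from 7841217 to 171256169 UMIs and kept cells from 943 to 9543 per library. Endothelial cells numbered 26 to 545 per animal, with 227976 to 6305548 UMIs in all, and their median depth per animal lay between 3302 and 10494 UMIs. Of all barcodes, 1565 occurred in more than 1 library, and 2 of these were endothelial. Cloned CFTR-/- replicate 3 at 120 days had the shallowest library, WT replicate 1 at term had only 26 endothelial cells, and in cloned CFTR-/- replicate 1 at 80 days 45.1% of the endothelial cells carried 3 or more markers of a stromal, mural, duct, Schwann, macrophage or lymphocyte list. In the other animals that share was 0% to 19.4%, and it was 7.26% over all 4144 cells. No doublet caller was run, and the cells with such markers were left out as an alternative. CFTR itself stood at 35.8 CPM (the count of its UMIs scaled to 1e6 UMIs of the cells) in the endothelial cells of cloned replicate 3 at 80 days, with 40 UMIs, and at or under 5.17 CPM in those of the other animals. In the other kept cells CFTR was present in every group, with medians of 22.0 CPM in non-CF and 95.8 CPM in CFTR-/- fetuses at 80 days, so these transcript ends do not check the edited allele.

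Most endothelial cells exceeded the minimum of the rule. Of the 4144 cells, 2196 (53.0%) held all 6 markers, 968 held 5, 610 held 4 and 370 (8.93%) held 3. Just outside it lay 484 cells with 2 of the markers and no UMI of CHGA, CD3E or C1QA. A further 3222 such cells had 1 marker and 50514 had 0, and 20904 kept cells had under 3 markers and a UMI of CHGA, CD3E or C1QA. With 3 or more markers, 242 cells were left out for a UMI of CHGA (180 cells), CD3E (32) or C1QA (35). PECAM1, the adhesion molecule of endothelial junctions, was detected in 98.3% of the members, PLVAP, the diaphragm protein of fenestrae, in 93.6%, and the VEGF receptor KDR in 84.0%. VWF, the carrier of factor VIII, was detected in 83.7%, the junction cadherin CDH5 in 81.1% and the sialomucin EMCN in 79.9%.

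Genes that the rule did not use carried the same label. CLEC3B averaged 4128 ± 828 CPM (SD, n = 23 animals) in the endothelial cells and 47.2 CPM in the other kept cells. RAMP2, which pairs with the adrenomedullin receptor, averaged 2012 ± 662 CPM against 25.5 CPM, and the surface sialomucin CD34 averaged 730 ± 251 CPM against 6.09 CPM. Among the 20 genes with the largest mean ratio of endothelial to other cells (20 CPM added), all 6 rule genes were present, and the others included PTPRB, the phosphatase that restrains TIE2, the collagen COL15A1, GNG11, SPARCL1, RGCC and ECSCR, each higher in endothelial cells in 23 of 23 animals. The transcription factors ERG (139 against 2.07 CPM), SOX17 (208 against 0.69 CPM) and BCL6B (81.7 against 0.69 CPM), the TIE2 receptor TEK (188 against 1.94 CPM), the sprouting inhibitor ROBO4 (287 against 1.10 CPM) and the nitric oxide synthase NOS3 (82.0 against 0.33 CPM) were likewise higher in 23 of 23 animals. These comparisons describe the chosen cells, and no test was made of them.

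**Figure D1:**
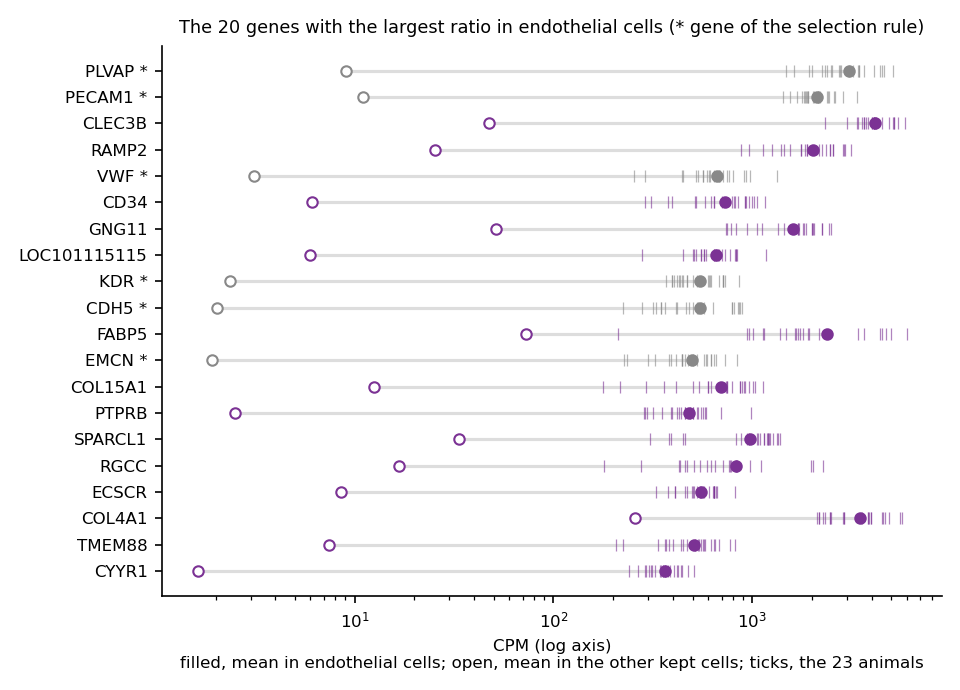
Mean level of 20 genes in endothelial cells (filled points) and in the other kept cells (open points), in CPM on a log axis, with a tick for each of 23 animals and an asterisk at the genes of the rule. PLVAP, CLEC3B, PECAM1 and RAMP2 lie between 2012 and 4128 CPM in endothelial cells and at or under 47.2 CPM in the others.

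Acinar transcripts were the most frequent foreign signal. A UMI of 3 or more acinar genes was found in 2309 endothelial cells (55.7%), against 189 cells with 3 or more duct genes, 110 with stromal, 82 with endocrine and 42 with mural genes. The summed acinar list averaged 1009 CPM in non-CF animals at 80 days (236 to 2552), 6069 CPM in WT at 120 days (1560 to 11096) and 16952 CPM in WT lambs at term (610 to 27508). In cloned CFTR-/- fetuses the same sum was 107 CPM at 80 days (56.2 to 157) and 1995 CPM at 120 days (71.7 to 5364). The mean sum differed with age, and its part in the gene comparisons below was not tested, while shares without acinar-rich cells are given beside the shares. Outside the lists, and apart from entries named after their values were seen, a gene was named only if its mean level over all animals was at least as high in endothelial cells as in the other kept cells.

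The share of kept cells that were endothelial was 1 value per animal, and it was compared by exact two-sided permutation tests of log2 shares. At 80 days the shares were 4.02%, 2.86%, 2.28% and 2.44% in non-CF fetuses and 3.52%, 1.92% and 3.55% in CFTR-/- fetuses, and the groups overlapped (2.90% ± 0.785 and 2.99% ± 0.935, SD). At 120 days WT fetuses had 5.00%, 3.75% and 4.49%. The cloned CFTR-/- fetuses had 4.09%, 5.75%, 42.0% and 3.60%, and the naturally bred ones had 2.38% and 3.15%. The value of 42.0% was that of replicate 3, with 396 of 943 kept cells (95% Wilson interval 38.9% to 45.2%, for counting error only), and without it the cloned mean was 4.48% ± 1.13. At term WT lambs had 2.40%, 4.77%, 1.32% and 4.92%, while CFTR-/- lambs had 4.62%, 14.0% and 13.2%. Among the CFTR-/- lambs, 1 naturally bred lamb and the cloned one lay above all WT lambs.

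**Figure D2:**
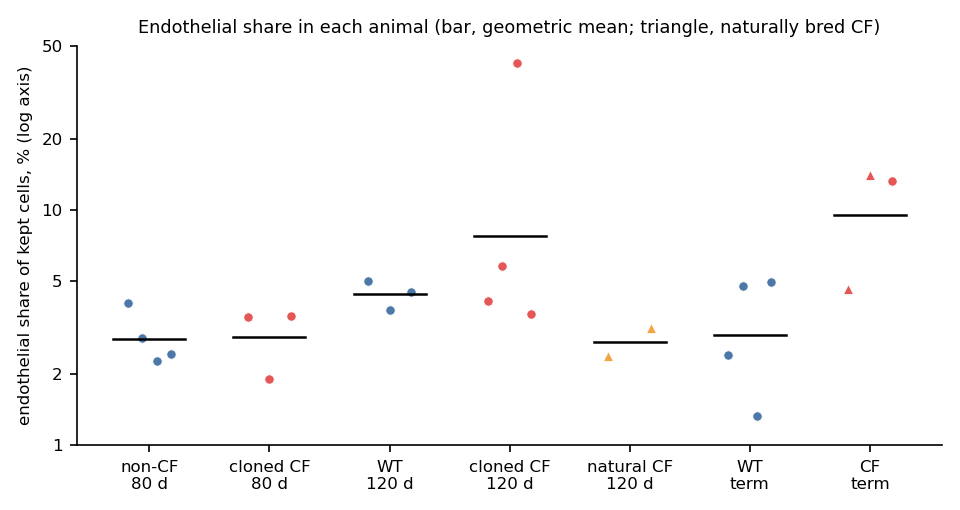
Endothelial cells as a percentage of kept cells in each of 23 animals, on a log axis, by age and genotype, with a bar at the geometric mean of each group and triangles for naturally bred CFTR-/- animals. Cloned CFTR-/- replicate 3 at 120 days stands at 42.0%, and the CFTR-/- lambs at 14.0% and 13.2% lie above the WT lambs.

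None of 9 comparisons of the share passed after Benjamini-Hochberg adjustment. CFTR-/- exceeded WT 3.23-fold at term (log2 difference 1.69, exact permutation p = 0.143, adjusted p = 0.257), where the smallest p that 3 against 4 animals allow is 0.0286. After adjustment over 9 comparisons, such a p could pass only if several other comparisons had p as small. The log2 difference was 0.03 at 80 days (exact p = 0.943, adjusted p = 0.943) and 0.32 at 120 days (exact p = 0.869, adjusted p = 0.943), and the latter was -0.27 without cloned replicate 3. Naturally bred and cloned CFTR-/- fetuses at 120 days differed by -1.50 (exact p = 0.333, adjusted p = 0.478), in a design that cannot go below 0.0667, and by -0.68 without cloned replicate 3. Over the 3 ages together CFTR-/- exceeded non-CF animals 1.60-fold (log2 difference 0.68, exact p = 0.120, adjusted p = 0.257). Within genotype, the share at 120 days exceeded that at 80 days 2.04-fold (log2 difference 1.03, exact p = 0.0188, adjusted p = 0.169), and by 0.62 on the log2 scale without cloned replicate 3. That difference passed at 1.18 without acinar-rich cells and at 1.24 without endothelial cells carrying markers of other cells (exact permutation, adjusted p = 0.0441 for each). Between non-CF fetuses at 80 days and WT fetuses at 120 days the share differed by 0.63 (exact p = 0.0857, adjusted p = 0.257). Between WT fetuses at 120 days and WT lambs at term the share differed by -0.58 (exact p = 0.371, adjusted p = 0.478), turning to 0.11 without acinar-rich cells. Within the clones it differed by 1.42 between 80 and 120 days (exact p = 0.143, adjusted p = 0.257), and by 0.61 without replicate 3 at 120 days. A share depends on all other cells of the library too, so it does not give a number of vessels.

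Classes within the endothelium were counted in the 3109 cells with at least 3000 UMIs, each thinned to 3000 UMIs. A cell was counted in a class when it held at least 2 genes of its list, and a cell could be in several classes. By these counts 1229 cells (39.5%) had arterial genes, such as GJA4, SOX17 and DLL4, and 718 (23.1%) had venous genes, such as ACKR1, SELP and NR2F2. Lymphatic genes, such as MMRN1, FLT4 and CCL21, were found in 228 cells (7.33%), and genes of dividing cells, such as TOP2A and MKI67, in 197 cells (6.34%).

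Dividing cells made up 13.8% ± 5.94 of endothelial cells in non-CF fetuses and 15.9% ± 2.52 in CFTR-/- fetuses at 80 days (SD, n = 4 and 3). At 120 days the means were 8.91% ± 5.18 in WT and 3.81% ± 1.65 in cloned CFTR-/- fetuses, and at term they were 2.97% ± 2.12 and 4.71% ± 4.15. The dividing share at 120 days differed from that at 80 days by -4.85 percentage points in WT and non-CF fetuses and by -12.1 points in the clones. The mean of both, -8.45 points, missed the threshold (exact permutation p = 0.0114, adjusted p = 0.0914 over 8 comparisons). With unthinned cells the difference was -13.6 points and passed (adjusted p = 0.0131), but those cells also differed in depth. Without cells carrying markers of other cells it was -8.77 points and passed (exact permutation, adjusted p = 0.0392), and without non-CF replicate 2 at 80 days it was -9.56 points and passed (exact permutation, adjusted p = 0.0343). Of the 228 cells in the lymphatic class, 95 were also in the venous and 55 in the arterial class, so the class does not define lymphatic identity. Cells of this class averaged 16.0% ± 4.14 and 20.6% ± 4.64 at 80 days (SD) and 4.27% ± 1.73 and 4.56% ± 3.61 at term. At 120 days they made up 2.97%, 25.0% and 4.64% in the WT fetuses and 7.76%, 2.50%, 15.9% and 1.41% in the clones, so WT replicate 2 and cloned replicate 3 set the means of 10.9% and 6.90%. The difference of -9.41 points between 120 and 80 days missed the threshold (exact p = 0.0457, adjusted p = 0.183). It passed at -12.9 points without WT replicate 2 (exact permutation, adjusted p = 0.0457) and at -24.9 points with unthinned cells (exact permutation, adjusted p = 0.0131). The arterial mean lay between 28.6% and 45.6% and the venous mean between 14.9% and 25.7% in the groups. The age difference of neither class passed (arterial 5.53 points, exact p = 0.154, venous 2.73 points, exact p = 0.613). CFTR-/- and non-CF animals differed by -0.32 points in the dividing share (exact p = 0.854), by -0.08 in the lymphatic share (exact p = 0.974), by -3.83 in the arterial share (exact p = 0.155, adjusted p = 0.310) and by 4.91 in the venous share (exact p = 0.213, adjusted p = 0.340).

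**Figure D3:**
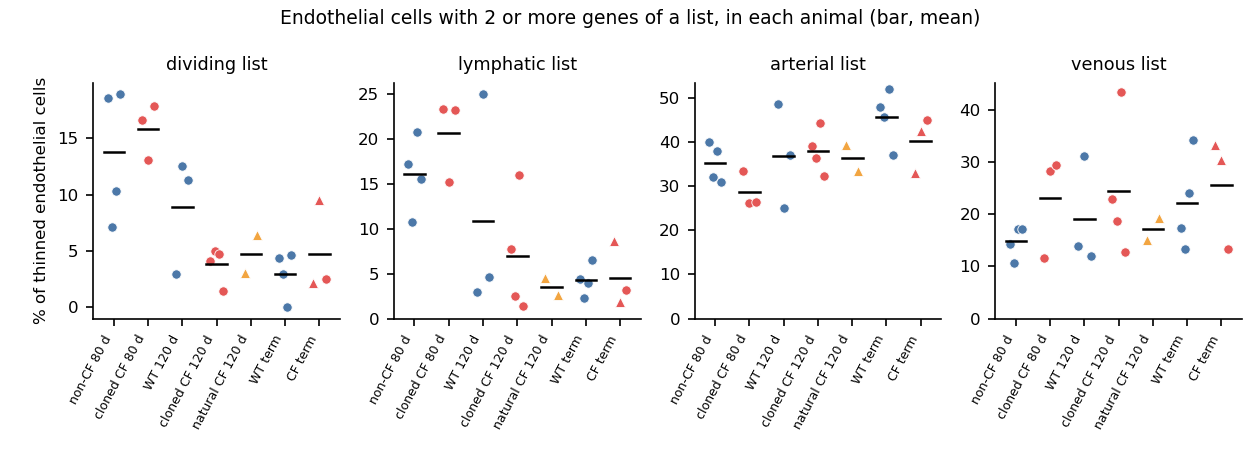
Share of endothelial cells, each thinned to 3000 UMIs, with at least 2 genes of the dividing, lymphatic, arterial and venous lists, in percent per animal by age and genotype, with a bar at each group mean. The group means of the dividing share lie at 13.8% and 15.9% at 80 days and between 2.97% and 8.91% later.

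For the genes, UMIs were summed over the endothelial cells of each animal, and all 23 animals entered a fit of 7 groups in edgeR (quasi-likelihood test, Benjamini-Hochberg adjustment over the 9768 genes tested). A gene was called at an adjusted p of at most 0.05, and levels are CPM of the summed UMIs. The endothelial lists named below were chosen with earlier results of these data known.

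Between CFTR-/- and non-CF fetuses at 80 days, edgeR called 0 genes (0% of those tested), with 375 (3.84%) at an unadjusted p under 0.05, and DESeq2 called 1, the entry LOC101117443, named after its value was seen. Between CFTR-/- and WT lambs at term it called 0 genes (0%), with 383 (3.92%) at an unadjusted p under 0.05, and DESeq2 called 0. At neither age did a gene of the interferon, VEGF and TIE, Notch, BMP, capillary, arterial, venous, lymphatic or dividing lists pass. The median log2 difference of the capillary list was -0.01 at 80 days and -0.03 at term, and that of the VEGF and TIE list was -0.04 and -0.13. FABP4, a fatty acid carrier of capillaries, stood at 4636, 2170 and 3430 CPM in the CFTR-/- lambs and at 1057, 1317, 1955 and 3334 CPM in the WT lambs.

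At 120 days the cloned CFTR-/- and WT fetuses differed in 1 called gene (0.0102%), with 1340 (13.7%) at an unadjusted p under 0.05. The count varied with the animals and settings, with 128 calls without cloned replicate 1, 2 without cloned replicate 3 or WT replicate 3, 18 with no filter on low counts and 10 with DESeq2. The called gene is named here after its values were seen. LOC101120395, an entry with no symbol in the tables used, stood at 0.831, 2.45 and 0 CPM in the WT fetuses and at 46.0, 137, 153 and 71.2 CPM in the cloned ones (log2 difference 6.54, adjusted p = 0.000766). The naturally bred CFTR-/- fetuses had 179 and 195 CPM of it (log2 difference from WT 7.52). Non-CF fetuses at 80 days had 3.70, 0, 17.5 and 15.5 CPM and WT lambs at term 0, 16.3, 53.7 and 36.2 CPM. This comparison and the next share the 3 WT fetuses. Those fetuses and cloned replicate 1 were in the first deposit of samples, and the other clones were in the second.

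The naturally bred CFTR-/- fetuses differed from WT in 6 called genes, all higher (0.0614%), with 956 (9.79%) at an unadjusted p under 0.05. The count was 2 without WT replicate 1 or 2, 3 and 2 without either of the naturally bred fetuses, 13 with no filter on low counts and 24 with DESeq2. It was 1 with the set of accession numbers as a term, and all WT fetuses at 120 days belong to the first set and both naturally bred ones to the second. Of the 6 genes, 4 were entries without a symbol and the others were DUSP7 and MICA. DUSP7, a phosphatase of ERK, stood at 94.0 and 107 CPM against 19.9, 15.9 and 25.8 CPM in WT (log2 difference 2.07 ± 0.34, SE, adjusted p = 0.0114). MICA, a ligand of the NKG2D receptor, stood at 24.0 and 52.1 CPM against 0, 1.22 and 0.574 CPM. WT fetuses held 2 UMIs of MICA in all against 51, a ratio of 75.4 with a counting interval of 19.8 to 640 (adjusted p = 0.0177). At 80 days the non-CF fetuses held 21 UMIs of MICA and the clones 19, so the WT fetuses at 120 days were the group with the fewest. The call of MICA was lost in 7 of 13 alternatives (largest adjusted p = 0.543) and that of DUSP7 in 6 of 13. In cloned CFTR-/- fetuses MICA stood at 11.9, 28.6, 11.2 and 38.7 CPM, above the WT values in all 4, with a log2 difference of 4.85 that missed the threshold (adjusted p = 0.109). Between naturally bred and cloned CFTR-/- fetuses edgeR called 0 genes (0%), with 1321 (13.5%) at an unadjusted p under 0.05, and DESeq2 called 50. No gene of the endothelial lists was called in any of the comparisons at 120 days.

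More genes differed with age. The comparison of non-CF fetuses at 80 days with WT fetuses at 120 days is called that of WT below, although 2 of the 4 non-CF fetuses were heterozygous. Between non-CF fetuses at 80 days and WT fetuses at 120 days 42 genes were called (0.43%), 25 higher at 120 days (0.256%) and 17 lower (0.174%), a count that was 14, 14 and 22 without non-CF replicates 2, 3 and 4 and 15, 69 and 7 without WT replicates 1, 2 and 3. It was 198 with only the compared groups fitted, 210 with no filter on low counts, 164 with DESeq2 and 146 with the set of accession numbers as a term. THBD, the thrombin receptor that turns coagulation off, stood at 255, 231, 143 and 174 CPM at 80 days and at 512, 668 and 390 CPM at 120 days (log2 difference 1.72 ± 0.33, SE, adjusted p = 0.0182). CDH13, a cadherin that binds adiponectin, stood at 23.4, 22.4, 37.6 and 25.4 CPM and then at 88.9, 116 and 72.9 CPM (2.12 ± 0.34, adjusted p = 0.00828). Genes named by size were required to have no overlap between the groups, so the lack of overlap in these genes follows from their choice. KLF9, a transcription factor that glucocorticoids induce, stood at 9.85, 14.9, 15.0 and 5.64 CPM and then at 67.3, 50.1 and 36.7 CPM (2.62 ± 0.43, adjusted p = 0.00828). TNFSF10, the death receptor ligand TRAIL, was higher too (3.05 ± 0.66, adjusted p = 0.0370), as were BHLHE40 (2.90, adjusted p = 0.0379), SERTAD1 (2.35, adjusted p = 0.0424), C15H11orf96 (2.17, adjusted p = 0.00828) and the Notch ligand DLL1 (1.79, adjusted p = 0.0434). Of 17 alternatives, the call was lost in 9 for BHLHE40 and DLL1, in 8 for TNFSF10 and SERTAD1 and in 6 for THBD, and 0 genes were called without the 2 heterozygous fetuses.

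Among the genes lower at 120 days in WT, PRND, the prion-like protein doppel of growing vessels, stood at 53.0, 27.3, 65.2 and 32.4 CPM at 80 days and at 3.32, 6.11 and 2.87 CPM at 120 days (-3.15 ± 0.61, adjusted p = 0.0207). ST8SIA1, which makes the ganglioside GD3, stood at 145, 112, 100 and 121 CPM and then at 16.6, 29.4 and 12.1 CPM (-2.35 ± 0.41, adjusted p = 0.00828). The metalloprotease ADAM12 stood at 51.7, 62.1, 42.6 and 64.9 CPM and then at 9.97, 9.78 and 14.4 CPM (-1.88 ± 0.33, adjusted p = 0.00828). MXRA5, a matrix protein, was lower by -1.88 ± 0.35 (adjusted p = 0.0158), and APBB1IP, ANKRD50, ARMCX2 and CORO2B were lower by -3.15, -1.94, -1.55 and -1.49. The call of APBB1IP was lost in 9 of 16 alternatives, and those of ARMCX2 and CORO2B in 8 of 17.

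In cloned CFTR-/- fetuses 399 genes were called between 80 and 120 days (4.08%), 227 higher at 120 days (2.32%) and 172 lower (1.76%). The count was 101, 136 and 181 without cloned replicates 3, 2 and 1 at 80 days, 166 without replicate 3 at 120 days and 199 without endothelial cells carrying markers of other cells. It was 172 with only the compared groups fitted and 629 with the set of accession numbers as a term. This comparison shares no animals with the WT one, though the groups differ in size. Of the 25 genes higher in WT, 14 (56%) were also higher in cloned CFTR-/- fetuses, which is 6.17% of the 227, and all 25 had the same sign. Of the 17 lower in WT, 8 (47.1%, or 4.65% of the 172) were lower there too, and all 17 had the same sign. The share of all genes tested with the same sign in both comparisons was not counted. KLF9, THBD, TNFSF10 and SERTAD1 were among the shared genes that were higher, and ADAM12, PRND, ST8SIA1 and ARMCX2 among those lower. KLF9 stood at 3.18, 1.75 and 4.47 CPM in the clones at 80 days and at 57.1, 18.1, 60.0 and 21.7 CPM at 120 days (3.77 ± 0.52, adjusted p = 0.000703). CDH13 differed by 0.90 in the clones (adjusted p = 0.106) and MXRA5 by -0.64 (adjusted p = 0.244), and neither passed there.

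Among the lists, the interferon response had the most members that were higher in the clones at 120 days. Of 25 measured genes of the list, 11 were higher (against 2.32% of all genes tested) and 0 lower, with a median log2 difference of 1.48 against 0.00 over all genes tested. All 25 differences were positive, as were 49.9% of those of all genes. The count was 5 to 12 over the alternatives, and 8 without cloned replicate 3. ISG15, an interferon-induced ubiquitin-like protein, stood at 2.12, 10.5 and 5.36 CPM at 80 days and at 62.1, 205, 36.7 and 46.4 CPM at 120 days (4.16 ± 0.74, SE, adjusted p = 0.0043). RSAD2, the antiviral protein viperin, stood at 0, 3.50 and 3.58 CPM and then at 31.8, 61.8, 22.8 and 26.3 CPM (4.09 ± 0.84, adjusted p = 0.00913). The others of the list were IFI6, MX1, MX2, OAS2, the IFIT1 entry, IRF7, IRF9, DDX58 and TAP1, the peptide transporter of antigen presentation. The summed macrophage list in these cells was 78.7 to 115 CPM in the clones at 80 days and 18.6 to 70.1 CPM at 120 days. The lymphocyte list, with 5 of its 10 genes at 0, was 11.6 to 38.5 CPM and 1.59 to 9.28 CPM. Cells with a UMI of CD3E or C1QA were left out by the rule, so the sums do not cover them. Whether immune cells had a part in the interferon values was not tested.

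The interferon-induced chemokines CXCL9 and CXCL10, which draw T cells, were also higher in the clones at 120 days. CXCL10 stood at 4.24, 6.99 and 4.47 CPM at 80 days and at 208, 72.3, 155 and 29.4 CPM at 120 days (4.76 ± 1.04, adjusted p = 0.0129). CXCL9 stood at 1.06, 1.75 and 0.894 CPM, 3 UMIs in all, and then at 315, 88.9, 320 and 17.0 CPM, a ratio of 226 with a counting interval of 77.3 to 1099 (adjusted p = 0.0138). In WT fetuses at 120 days CXCL9 stood at 13.3, 2.45 and 28.1 CPM and CXCL10 at 0.831, 9.78 and 7.46 CPM. The naturally bred CFTR-/- fetuses had 33.2 and 35.6 CPM of CXCL9 and 7.37 and 26.0 CPM of CXCL10.

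Between non-CF fetuses at 80 days and WT fetuses at 120 days, 1 gene of the 25 passed (IRF7, 3.17, against 0.256% of all genes higher) and the median of the list was 0.53. Without cells carrying markers of other cells IRF7 did not pass (3.04, adjusted p = 0.0529). Whether the change from 80 to 120 days differed between cloned CFTR-/- and WT was tested as an interaction, and edgeR called 0 genes (0%), with 710 (7.27%) at an unadjusted p under 0.05, while DESeq2 called 1, the entry LOC101112291, named after its value was seen. The interaction was 5.32 for CXCL10 (adjusted p = 0.641), and none is given for CXCL9, which had 0 UMIs in the non-CF fetuses at 80 days. The larger number of interferon genes called in the clones was thus not shown to be a difference between cloned CFTR-/- and WT fetuses. Between cloned CFTR-/- and WT fetuses at 120 days itself, 21 of 25 interferon genes had positive differences, as did 50.1% of all genes, and 0 passed. The summed interferon list stood at 1805 to 2760 CPM in WT fetuses at 120 days, 2097 to 4182 CPM in the clones, 3583 and 3751 CPM in the naturally bred CFTR-/- fetuses and 2066 to 8880 CPM in WT lambs, so the list as a whole was not highest in the clones.

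**Figure D4:**
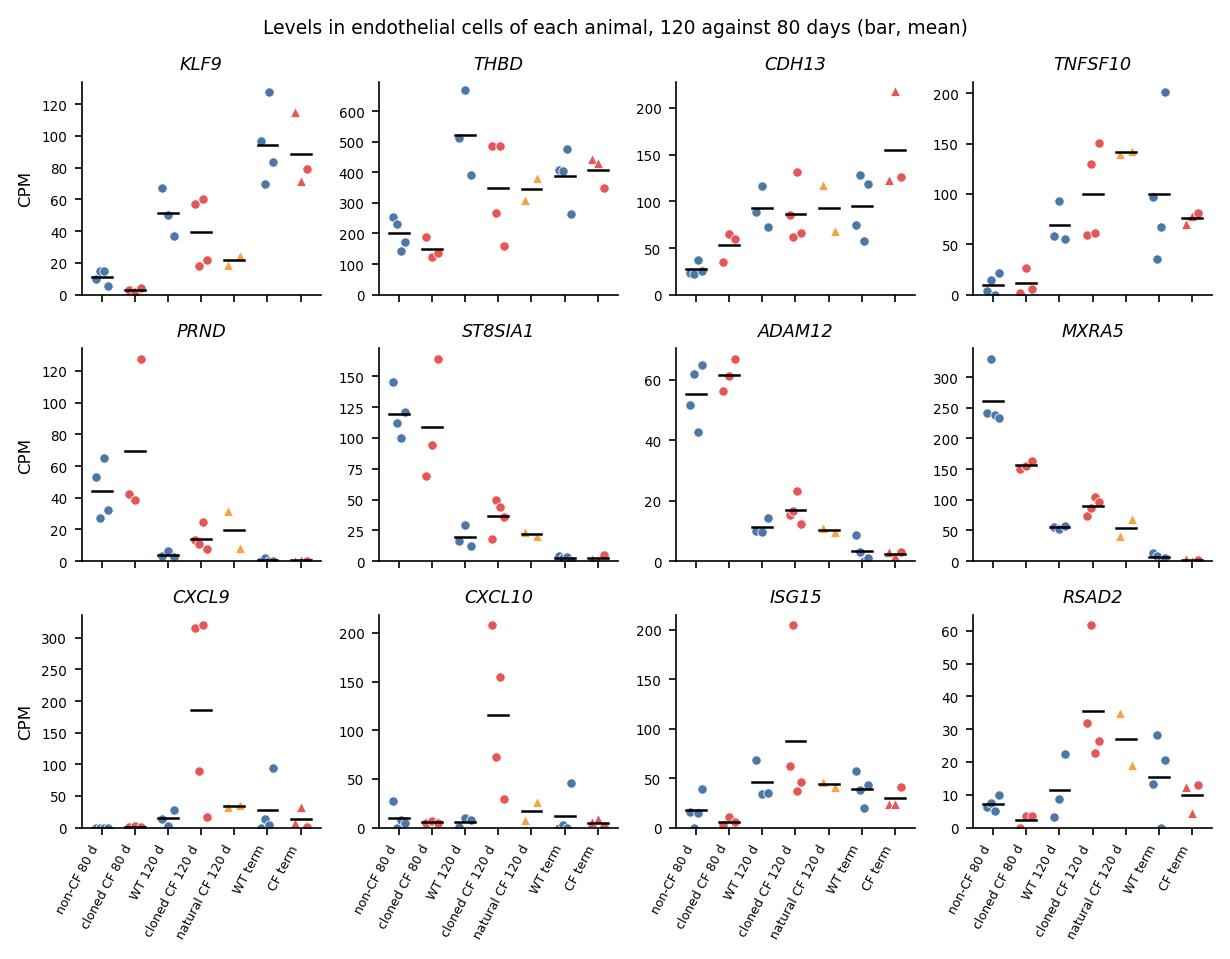
CPM of 12 genes in the endothelial cells of each animal of the 7 groups, on linear axes, with a bar at each group mean, in blue for WT and non-CF and red for CFTR-/- animals, with triangles for naturally bred CFTR-/- animals (orange at 120 days). KLF9, THBD and TNFSF10 are higher and PRND, ST8SIA1 and ADAM12 lower at 120 days, both in WT against non-CF fetuses and in cloned CFTR-/- fetuses. ISG15, RSAD2, CXCL9 and CXCL10 have their highest group mean in the cloned CFTR-/- fetuses at 120 days.

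Members of other lists that were higher in the clones at 120 days included SELP, which captures leukocytes in venules. It stood at 31.8, 10.5 and 8.05 CPM at 80 days and at 289, 90.4, 379 and 29.4 CPM at 120 days (3.63, adjusted p = 0.0138), with 1 fetus at 120 days below the highest at 80 days. The chemokine CXCL12 was higher by 2.27 (adjusted p = 0.00704), the arterial ligand EFNB2 by 1.03, the VEGF receptor FLT1 by 1.00 (adjusted p = 0.0298) and the BMP effector SMAD1 by 1.67. EFNB2 passed neither without cloned replicate 3 at 120 days nor without cells carrying markers of other cells (1.04 and 0.93), and CXCL12 passed in both. The protease ADAMTS4, in none of the lists, was higher by 5.57 (adjusted p = 0.00365). TFPI, the inhibitor of tissue factor, was lower, from 155, 275 and 274 CPM to 68.6, 61.8, 85.0 and 63.4 CPM (-1.54, adjusted p = 0.00651).

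Among the genes lower in the clones at 120 days, KIAA0101, a partner of PCNA, stood at 66.8, 71.7 and 79.6 CPM at 80 days and at 9.96, 4.52, 6.91 and 10.8 CPM at 120 days (-2.93 ± 0.67, adjusted p = 0.0156). MAD2L1, of the spindle checkpoint, stood at 33.9, 57.7 and 65.3 CPM and then at 12.6, 13.6, 5.84 and 12.4 CPM (-2.03, adjusted p = 0.00704). FBXO5, NEK2 and UHRF1 were lower by -2.54, -2.54 and -2.04 (adjusted p = 0.0337, 0.0415 and 0.0417), and of 16 alternatives their calls were lost in 9, 9 and 7. Of 16 replication genes, 3 passed (PCNA, RRM1 and UHRF1, all lower, against 1.76% of all genes tested), with a median of -1.07. Without the endothelial cells carrying markers of other cells 0 of them passed (PCNA -0.87, RRM1 -0.87, UHRF1 -1.64), and without cloned replicate 3 at 120 days 1 passed (RRM1). Of the 12 genes of the dividing list 0 passed, and all 12 differences were negative, as were 50.1% of those of all genes, with a median of -1.76 in the clones and -0.20 in WT.

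ELN, which encodes elastin, stood at 1078, 1402 and 960 CPM in the clones at 80 days and at 129, 229, 150 and 72.7 CPM at 120 days (-2.81 ± 0.60, adjusted p = 0.0124). The log2 difference was -0.19 when the endothelial cells with markers of other cells were left out. Of 12 measured genes of the mesenchymal transition list 5 were lower in the clones (TAGLN, FN1, COL1A1, COL1A2 and COL3A1, against 1.76% of all genes tested). Without those cells 0 were called lower and 1 was called higher, and COL1A1 differed by -1.89, COL1A2 by -1.55, COL3A1 by -1.74, FN1 by -0.75 and TAGLN by 0.23. The cells were left out for carrying stromal or mural genes, COL1A1 and TAGLN among them. Lower levels of such genes without them follow from that choice, so the lost calls are no separate result. Without cloned replicate 3 at 120 days only FN1 was called lower (-2.44). COL1A1 stood at 817, 126 and 27.7 CPM in the clones at 80 days, highest in replicate 1, in which 45.1% of the endothelial cells carried such markers. The summed stromal list averaged 1201 CPM in the clones at 80 days (226 to 2825) and 74.6 CPM at 120 days (15.1 to 221). Levels of COL1A1, COL1A2 and COL3A1 were also higher in the other kept cells than in the endothelial cells.

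The latest comparison, WT lambs at term against WT fetuses at 120 days, gave 214 called genes (2.19%), 101 higher at term (1.03%) and 113 lower (1.16%). With only these 2 groups fitted 23 genes were called, and the count was 103, 105 and 134 without WT replicates 1, 2 and 3 at 120 days and 142 and 109 without WT replicates 3 and 4 at term. FABP4 had the largest difference. It stood at 9.14, 3.67 and 2.87 CPM at 120 days and at 1057, 1317, 1955 and 3334 CPM at term (log2 difference 8.64 ± 0.81, SE, adjusted p = 2.62e-06), and all 6 CFTR-/- fetuses at 120 days lay at or under 18.1 CPM. In the other kept cells of WT lambs FABP4 averaged 8.42 CPM. FABP5, the related fatty acid carrier, was already abundant at 120 days (1477, 1658 and 1133 CPM) and stood at 5957, 3621, 4981 and 4368 CPM at term, and its difference of 1.85 just missed the threshold (adjusted p = 0.0537).

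Besides FABP4, the capillary genes CA4 and BTNL9 were higher at term. CA4, a carbonic anhydrase of the capillary lumen, stood at 0, 4.89 and 3.44 CPM at 120 days and at 65.8, 9.28, 20.2 and 101 CPM at term (4.24 ± 0.81, adjusted p = 0.00674). BTNL9, a butyrophilin-like surface protein, stood at 49.8, 30.6 and 85.0 CPM and then at 531, 130, 416 and 175 CPM (2.46 ± 0.40, adjusted p = 0.00221). Of 13 measured capillary genes, 3 were higher (FABP4, CA4 and BTNL9, against 1.03% of all genes tested) and 0 lower, with a median of 0.40 against 0.00 over all genes, and without WT replicate 1 at term 3 were called as well. The remaining capillary genes did not pass, among them RGCC (1.31, adjusted p = 0.143) and GPIHBP1, which anchors lipoprotein lipase (0.64, adjusted p = 0.423). The fatty acid receptor PPARG differed by 0.94 (adjusted p = 0.171).

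Further genes higher at term were CPT1A, which carries fatty acids into mitochondria, at 9.14, 8.56 and 17.2 CPM and then 52.6, 43.0, 30.2 and 66.4 CPM (2.16 ± 0.37, adjusted p = 0.00311), and the water channel AQP1 (3.53, adjusted p = 0.00475). MICA held 2 UMIs in the WT fetuses against 257 in the lambs, where it stood at 65.8, 34.3, 33.6 and 94.9 CPM, a ratio of 92.2 with a counting interval of 25.3 to 766 (adjusted p = 0.000666). These WT fetuses were the group with the fewest UMIs of MICA, and at the same age the clones held 96 and the naturally bred CFTR-/- fetuses 51. S100A2 (3.11, adjusted p = 0.0143) and CTSH (2.47, adjusted p = 0.00627) were higher, with the highest lamb well above the others. For S100A2 the mean log2 ratio of endothelial to other cells (20 CPM added) was -0.04, so it was not particular to these cells. Factor VIII, F8, was higher by 1.44 (adjusted p = 0.00311), the chemokine CX3CL1 by 2.01 (adjusted p = 0.00686), PLPP3 by 1.17 (adjusted p = 0.0331) and the immunoproteasome subunit PSMB8 by 1.81. Over 16 alternatives the call was lost in 8 for PLPP3, in 6 for PSMB8 and in 1 each for F8 and CX3CL1. The venule receptor ACKR1 differed by 2.08 and missed the threshold (adjusted p = 0.0851). The acinar enzyme CPB1 was higher by 4.12 in these cells, beside the acinar sums given above, and its call was lost in 7 of 16 alternatives.

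Among the genes lower at term were several growth genes of the fetus. IGF2, the imprinted fetal growth factor, stood at 1645, 1759 and 2106 CPM at 120 days and at 869, 357, 245 and 187 CPM in the WT lambs (-2.10 ± 0.36, adjusted p = 0.00311). CDKN1C, an imprinted inhibitor of the cell cycle, stood at 204, 218 and 345 CPM and then at 48.3, 34.9, 53.7 and 35.4 CPM (-2.50 ± 0.38, adjusted p = 0.00148). These were the 2 of 10 imprinted growth genes that passed, both lower, against 1.16% of all genes tested, and the median of the list was -0.96. MDK, the growth factor midkine, stood at 218, 638 and 237 CPM and then at 92.1, 27.0, 6.72 and 50.9 CPM (-2.96 ± 0.44, adjusted p = 0.00148).

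PNOC, the precursor of nociceptin, stood at 20.8, 146 and 122 CPM in WT at 120 days and at 4.39, 1.69, 6.72 and 5.18 CPM at term (-4.58 ± 1.06, adjusted p = 0.0241). In the CFTR-/- lambs PNOC stood at 1.35, 12.2 and 1.26 CPM, against 20.3 to 299 CPM in the CFTR-/- fetuses at 120 days. The laminin chain LAMA1 stood at 49.0, 17.1 and 40.2 CPM and then at 0, 1.97, 6.72 and 6.90 CPM (-3.09 ± 0.53, adjusted p = 0.00311). MXRA5 (-2.67), COL21A1 (-2.64), the exchange factor ARHGEF26 (-2.61) and HPGD, which inactivates prostaglandins (-2.52), were lower too. For HPGD the mean log2 ratio of endothelial to other cells (20 CPM added) was -0.001, so it was not particular to these cells. GJA4, the arterial connexin, was lower by -1.61 (adjusted p = 0.0390) and VEGFB by -1.09 (adjusted p = 0.0363). GJA4 no longer passed without WT replicate 1 at term (-1.38) or without cells carrying markers of other cells (-1.64), and over 16 alternatives the call was lost in 7 for GJA4 and in 6 for VEGFB. Of the 13 basement membrane genes 0 passed, with a median of -0.41, and COL4A1 differed by -0.63 (adjusted p = 0.156). Over 16 alternatives 0 to 3 of them were called lower. Their summed level was 7336 to 8059 CPM in WT fetuses at 120 days and 4351 to 5716 CPM in WT lambs. In non-CF fetuses at 80 days it was 9986 to 10917 CPM. The sum was not tested, and these CPM leave out the TMM factors that the fit used. Those factors were 1.12 to 1.24 in non-CF fetuses at 80 days, 0.869 to 1.02 in WT fetuses at 120 days and 0.697 to 1.00 in WT lambs.

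**Figure D5:**
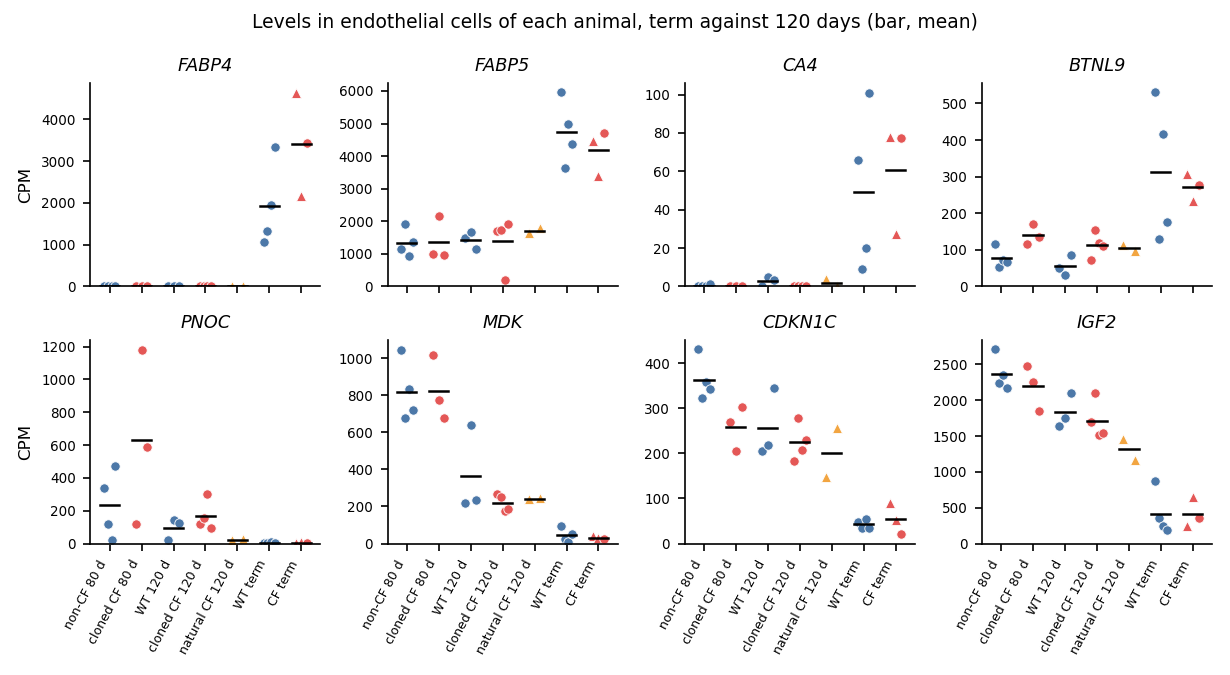
CPM of 8 genes in the endothelial cells of each animal of the 7 groups, on linear axes, with a bar at each group mean, in blue for WT and non-CF and red for CFTR-/- animals, with triangles for naturally bred CFTR-/- animals (orange at 120 days). FABP4 is at or under 18.1 CPM in every fetus and at 1057 CPM or more in every lamb, and MDK, CDKN1C and IGF2 are lower in the lambs of both genotypes.

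Few members of the signalling and identity lists were called with age. Of 17 endothelial transcription factors tested 0 passed in any of the 3 age comparisons, and their medians were -0.02 (WT, 120 against 80 days), 0.42 (clones, 120 against 80 days) and -0.23 (WT, term against 120 days). Of 10 VEGF and TIE receptors and ligands, FLT1 (higher in the clones) and VEGFB (lower at term) passed, against 2.32% of all genes higher and 1.16% lower in these comparisons. Of 9 Notch genes, DLL1 passed in WT between 80 and 120 days (0.256% of all genes higher), and of 14 BMP and TGF-beta genes, SMAD1 passed in the clones (2.32% of all genes higher). Of 16 tip cell and sprouting genes, the basement membrane gene NID2 passed in the clones (-0.71, 1.76% of all genes lower). In the basement membrane list 1 gene was higher in the clones and 1 lower. The laminin chain LAMA5 was called higher there, and its call was lost in 4 of 16 alternatives. ADAMTS9, NDRG1 and MT-ND1 were higher and MEST lower in the clones too, with calls lost in 3 of 16, 2 of 15, 8 of 16 and 1 of 16. ZEB2 was lower in WT between 80 and 120 days, a call lost in 6 of 16. Without cloned replicate 3 at 120 days none of FLT1, SMAD1 and NID2 passed, and without cells carrying markers of other cells SMAD1 passed and FLT1 and NID2 did not. Of 8 lymphatic genes 0 passed, with medians of -0.71 in WT and -1.04 in the clones between 80 and 120 days. Among 20 immediate early and stress genes, which tissue dissociation can induce, IER2 and DNAJB1 were higher in WT at 120 days (1.39 and 2.68, against 0.256% of all genes) and IER2, GADD45B and MYC in the clones (against 2.32%). Of the latter only GADD45B passed without cloned replicate 3 at 120 days and without cells carrying markers of other cells, and in WT the calls of IER2 and DNAJB1 were each lost in 8 of 17 alternatives. The part of dissociation in these values was not tested.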

How the data were processed

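Single-cell RNA-seq of sheep pancreas (10x Genomics, 3′ end) covered 26 libraries of 23 animals. The raw, not normalized count of UMIs per gene and barcode that the authors deposited came from Cell Ranger 3.1.0 with the assembly Oar_v4.0 and covers 24478 genes and 109501 barcodes. The files name 8432 genes by LOC entries, and a RefSeq table of another assembly (ARS-UI_Ramb_v3.0) was used only to pair 573 of them with symbols. No sequence is shown, since no genome was used here.

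From these counts, cells were kept and endothelial cells chosen as described above. The members and the gene lists were chosen with earlier results of these data known. Libraries of an animal were averaged for shares and summed for genes. Shares were compared by exact permutation over animals (scipy 1.17.1, Python 3.11.15). Summed UMIs were tested with edgeR 4.0.16 in R 4.3.3 (TMM, filterByExpr, glmQLFit and glmQLFTest, 7 groups in one fit, animals with at least 20 cells). The genes of the rule stayed in the fit, and their tests are not reported. Animals were treated as independent, although 3 of the 4 non-CF fetuses at 80 days were triplets, the naturally bred CFTR-/- fetuses at 120 days were twins and the clones came from a single line. In the study's sample table, 2 of the 3 WT fetuses at 120 days, 2 clones at 80 days and 2 at 120 days also have animal numbers with a shared stem, which may mark a shared pregnancy. For the clones of both ages the paper gives fewer recipient ewes than fetuses, so some clones of an age shared a recipient. The p-values thus measure the spread between these animals. The fit was tested on simulated data. Genes were named in each direction as the up to 8 with the largest log2 difference among those called, with no overlap of animals, a mean of at least 20 CPM in the higher group, a mean level in endothelial cells at least that in other cells and a gene symbol. Called members of the lists were named too, except some in the lists of other cells. DESeq2 1.42.0, other filters, thinning, covariates and leaving out each animal were tried as alternatives.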

Additional observations from a re-analysis of the deposited data

Results flagged for a closer look

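In groups of 4 animals, each value was set against the others by the gap of the highest or lowest animal to its nearest neighbour, relative to the range of the group. Of 63 such groups of values, 7 passed Dixon's 95% criterion (0.829 for 4 animals), and chance alone passes about 1 in 20. No explanation of these values was tested.

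The endothelial share of cloned CFTR-/- replicate 3 at 120 days was 42.0% of kept cells, and the next highest of its group was 5.75%. In the same fetus the level of CPNE4 was the highest of the cloned fetuses at 120 days (9.56 CPM, next 2.68 CPM) and that of MAD2L1 was the lowest (5.84 CPM, next 12.4 CPM). ISG15 was highest in cloned CFTR-/- replicate 2 at 120 days (205 CPM, next 62.1 CPM). S100A2 and CTSH were both highest in WT replicate 4 at term (539 CPM, next 96.5 CPM, and 190 CPM, next 68.3 CPM). MXRA5 was highest in non-CF replicate 2 at 80 days (330 CPM, next 241 CPM).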

How the results depend on the processing

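Depth limits these comparisons: animals with few endothelial cells (26 to 43 in some) give noisy sums, and a count of 0 calls does not show that groups were alike. Of the genes named by size, 0 changed direction under these alternatives, and 54 of 460 values from other settings and 113 of 346 from leaving out an animal no longer passed. These genes were chosen for groups without overlap, so leaving out an animal could hardly turn their direction. Of the called members of the lists, TAGLN changed direction in the clones with age (0.23 without cells carrying markers of other cells, which TAGLN helped to pick out), and 87 of 414 and 150 of 322 values no longer passed. The calls of FABP4, CDKN1C, MICA and MXRA5 (term against 120 days) and, among the genes named by size, of ADAMTS4, ISG15, KLF9 and RSAD2 (clones, 120 against 80 days) passed throughout. Unless stated, the cause of a change was not tested.

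Counts of called genes follow in the order CFTR-/- against non-CF at 80 days, cloned and then naturally bred CFTR-/- against WT at 120 days, naturally bred against cloned, CFTR-/- against WT at term and WT 120 against 80 days. With no filter on low counts they were 6, 18, 13, 24, 3 and 210, and with DESeq2 1, 10, 24, 50, 0 and 164, with 1 for the interaction. With only the compared groups fitted, 2 genes were called at 80 days, 2 between clones and WT, 2 between naturally bred and cloned fetuses, 198 in WT at 120 against 80 days, 23 in WT at term and 172 in the clones with age. With the set of accession numbers (first or second deposit) as a term the counts were 1 for naturally bred CFTR-/- against WT, 5 against the clones, 146 in WT at 120 against 80 days and 629 in the clones with age. Replicate numbers pair no animals (correlations of same-numbered animals from -0.20 to 0.36, and in no comparison all over 0.1). The replicate block gave 124 calls in WT at term against 120 days and moved no other count by over 1.5 times, and it drops the naturally bred fetuses. Without endothelial cells carrying markers of other cells, the clones had 199 calls with age, and without the heterozygous fetuses, which leaves 2 animals, WT at 120 against 80 days had 0.

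Leaving out each animal in turn gave 0 to 1 calls at 80 days, 1 to 128 for clones against WT (128 without cloned replicate 1), 2 to 5 for naturally bred CFTR-/- against WT, 0 to 6 against the clones (6 without cloned replicate 1), 0 to 1 at term and 0 to 0 for the interaction. With age it gave 7 to 69 in WT at 120 against 80 days (14, 14 and 22 without non-CF replicates 2, 3 and 4, and 15, 69 and 7 without WT replicates 1, 2 and 3), 103 to 272 in WT at term (103, 105 and 134 without WT replicates 1, 2 and 3 at 120 days, 142 and 109 without WT replicates 3 and 4 at term) and 101 to 444 in the clones (181, 136 and 101 without replicates 1, 2 and 3 at 80 days, 166 without replicate 3 at 120 days).

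Among the shares, the difference at 80 days was -0.21 without cells carrying markers of other cells and -0.12 to 0.32 leaving out an animal, that at 120 days was -0.27 to 0.56, and WT at term against 120 days was 0.11 without acinar-rich cells. The difference of 120 against 80 days within genotype passed at 1.24 without endothelial cells carrying markers of other cells and at 1.18 without acinar-rich cells (exact permutation, adjusted p = 0.0441 for each). With unthinned cells the age differences were -13.6 points (dividing), -24.9 (lymphatic), -4.91 (arterial) and -10.5 (venous), of which the first and second passed. With at least 3 genes of a list the genotype difference was 0.0496 points (dividing) and 0.0935 points (arterial), and the dividing share with age was -8.77 without cells carrying other markers. Leaving out an animal, the genotype difference was -1.30 to 0.28 (dividing) and -1.40 to 2.27 (lymphatic), and the age difference -9.56 to -6.97 (dividing, passing at -9.56 without non-CF replicate 2 at 80 days), -12.9 to -7.43 (lymphatic, passing at -12.9 without WT replicate 2 at 120 days) and -0.45 to 4.69 (venous).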
